A study of Mus musculus with 18 samples.

Results

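Chaperones and proteasomes are the folding and disposal machinery of the cell. Heat shock proteins of the HSP70, HSP90 and small heat shock families hold or refold unfolding proteins, J-domain proteins (the Dnaj genes) deliver clients to HSP70, and the mitochondrial chaperonin and the cytosolic Cct ring fold proteins in a closed chamber. The proteasome degrades ubiquitin-tagged proteins in a barrel, the 20S core, which is opened by the 19S cap or by the PA28 activator. Many of these genes are driven by the heat shock factor, and the endoplasmic reticulum chaperones by the unfolded protein response, and both programmes are studied in brain tissue short of oxygen.

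The genes described here were taken by symbol: Hspa, Hspb, Hspd, Hspe, Hsph, Hsp90, Dnaj, Cct with a digit, Pdia, and Psma to Psmg. They covered 80 of the 46120 probes on the array and 66 genes. A probe was kept when its detection score, a rank against negative controls, exceeded 0.99 on at least 3 of the 18 arrays, which left 52 member probes for 46 genes among 14664 detected probes. Gene names came from the number inside the probe identifier, read as a mouse gene ID, since no key joining probes to genes was used here.

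The study measured total RNA from whole cortex and whole hippocampus of CD-1 mice aged 16 days, labelled male, on 18 bead arrays. Control mice were compared with mice under chronic consistent hypoxia (CCH) or chronic intermittent hypoxia (CIH), both started at postnatal day 2 and kept for 2 weeks, with 3 arrays in each of the 6 groups. The sources used here give no oxygen levels or cycle lengths. They do not say that the 3 arrays of a group came from separate animals, so p-values measure only the spread between arrays. For the CIH groups the series' design text writes CCH-treated mice once, and the sample titles were followed.

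The arrays had a median exported intensity of 70.8 to 96.4 and 12251 to 14530 detected probes, and replicates correlated at r = 0.982 to 0.995. The tissue labels matched their markers: the cortical genes Cux2, Mef2c and Rorb were lower and the hippocampal genes Fibcd1, Prox1 and Zbtb20 higher in control hippocampus than in control cortex, all called. On 5 of the 18 arrays labelled male (CCH cortex 2 and 3, CIH cortex 2, CCH hippocampus 3, CIH hippocampus 2) Xist read 9.36 to 10.18 on the normalized log2 scale, against 6.53 to 6.57 on the other 13. Kdm5d, listed with Xist to check the sex labels, read 6.46 to 6.51 on these 5 arrays and 6.71 to 6.93 on the other 13. All 5 were exposed arrays, so this split was not balanced between exposed and control groups. Results were also computed over the 13 arrays with low Xist, where CCH cortex keeps a single array. Each of 3 slides held every group once, always at one position, and the effects of position and of group cannot be told apart.

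Promoter sequences are given for 3 genes whose letters bear on the programmes named above. They are the 250 bases before the annotated start, 5′ to 3′ along the gene, from the RefSeq table of build GRCm38.p6. Capitals mark matches to GAANNTTC or TTCNNGAA (the heat shock element), to the endoplasmic reticulum stress element, and to ACGTG (the core of the hypoxia response element). Both strands were searched, and TGACNNNGC (the antioxidant response element) was searched too and is absent from these 3 windows. Hspb1 (chr5:135887669-135887918, plus strand) is shown as the chaperone gene that was lower in the exposed arrays, Hspe1 (chr1:55087898-55088147, plus strand) as the member that varied most between replicates, and Hspa5 (chr2:34771840-34772089, plus strand) as the textbook target of the unfolded protein response.
Hspb1: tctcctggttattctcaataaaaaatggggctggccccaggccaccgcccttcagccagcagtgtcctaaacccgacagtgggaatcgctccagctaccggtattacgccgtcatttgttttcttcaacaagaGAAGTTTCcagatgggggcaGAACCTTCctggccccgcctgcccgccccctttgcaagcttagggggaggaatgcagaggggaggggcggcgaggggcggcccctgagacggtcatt
Hspe1: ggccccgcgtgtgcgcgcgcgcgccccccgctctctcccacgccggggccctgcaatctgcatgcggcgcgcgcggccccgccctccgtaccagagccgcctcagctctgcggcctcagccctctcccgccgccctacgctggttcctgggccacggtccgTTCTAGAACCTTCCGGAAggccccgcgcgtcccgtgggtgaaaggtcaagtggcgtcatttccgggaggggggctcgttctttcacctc
Hspa5: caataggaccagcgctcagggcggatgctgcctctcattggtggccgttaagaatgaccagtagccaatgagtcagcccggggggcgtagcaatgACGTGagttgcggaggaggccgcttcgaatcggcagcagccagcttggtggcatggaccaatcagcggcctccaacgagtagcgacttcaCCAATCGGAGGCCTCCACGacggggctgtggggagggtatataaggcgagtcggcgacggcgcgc

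Hspb1 held GAANNTTC at 117 and at 97 bases before its start. In Hspe1 a TTCNNGAA, a GAANNTTC and a second TTCNNGAA overlap in a single run, beginning 89, 84 and 79 bases before the start. The same letters lie, on the other strand, in 1 of the 2 promoter entries of Hspd1, its neighbour on chromosome 1. Of all 32851 promoter entries of the table, 12.8% held either form of the heat shock element and 1.46% held 2 or more matches. The stress element of Hspa5 stood in 0.113% of entries, the antioxidant element in 10.2% and ACGTG in 16.6%. Of the 46 detected member genes 36 had an entry: 7 of these held a heat shock element (Hspb1, Hspd1, Hspe1, Dnajb6, Dnajc27, Psmb5 and Psmf1), 6 an antioxidant element, 13 an ACGTG and 1, Hspa5, the stress element. A gene counts when any of its entries holds a match, while the shares of the whole table are per entry, so they are not like for like. All of these are letter matches, not measured binding sites.

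Of the 66 member genes, 40 were detected on all 18 arrays, 19 on none and Psmd9 on 2. Member probes passed the filter more often (65%) than all named probes (44.8%). The proteasome genes passed in 19 of 24 cases and the Dnaj genes in 14 of 25. Genes with no detected probe included the HSP70 partners Dnaja1, Dnaja2, Dnajb4 and Dnajb9, the HSP70-like Hspa12a and Hspa13, the core subunit Psma5, the cap subunits Psmc6 and Psmd11, and the immunoproteasome subunit Psmb8. A silent probe is not evidence of a silent gene here, because 5 genes had both a detected and an undetected probe: Psma3, Dnajc2, Dnajc30, Dnajc6 and Hsp90aa1. The stress-inducible Hspa1a and Hspa1b, the endoplasmic reticulum chaperone Hsp90b1, Hsph1, Psmb9 and every Pdia gene had no named probe. Hspbap1 and Psme3ip1 matched by prefix only, being a protein that binds Hspb1 and a protein that interacts with a proteasome activator, and the pseudogene Hspe1-ps2 was not detected.

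Against control, 1 member gene was called in single tissues, the small heat shock gene Hspb1, which was lower under CCH in cortex and in hippocampus. No other member gene with a detected probe passed the test there. Hspb1 encodes a chaperone that holds unfolding proteins without ATP and binds actin filaments. In cortex its normalized log2 level was 7.69, 7.56 and 7.69 in control, 7.02, 7.25 and 7.10 under CCH, and 7.28, 7.35 and 7.38 under CIH. In hippocampus it was 7.48, 7.61 and 7.50 in control, 7.17, 7.22 and 7.13 under CCH, and 7.03, 7.28 and 7.12 under CIH. All 12 exposed arrays lay below all 6 control arrays.

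The log2 difference of Hspb1 under CCH in cortex was −0.52 ± 0.07 (SE, adjusted p = 0.0017 by limma over all detected probes), a level 1.44-fold below control. Within the 3 slides it was −0.67, −0.31 and −0.59. In that comparison 1 of the 52 member probes was called, against 0.846% of all detected probes. Under CCH in hippocampus Hspb1 differed by −0.36 ± 0.07 (adjusted p = 0.034), with slides at −0.31, −0.39 and −0.37, and it was again the 1 member called, against 0.518% of all probes. CIH gave −0.31 ± 0.07 in cortex (adjusted p = 0.13) and −0.39 ± 0.07 in hippocampus (adjusted p = 0.058). Neither passed, and 0 of 52 members were called under CIH, against 0.15% of all probes in cortex and 0.0614% in hippocampus. At an unadjusted p under 0.05, 5 member probes passed in cortex and 9 in hippocampus under CIH, against 6.38% and 6.39% of all probes.

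Averaged over both tissues, Hspb1 fell by 0.44 on the log2 scale under CCH (adjusted p = 0.00016) and by 0.35 under CIH (adjusted p = 0.003). Here 2 of 52 member probes were called for each exposure, against 2.2% of all probes for CCH and 0.9% for CIH. The other call was a probe of Psme1, described below. The tissues may come from the same animals, which the labels do not say. Not every same-numbered pair matched: Xist read 10.05 on CCH cortex 2 and 6.56 on CCH hippocampus 2. All these comparisons share their control arrays.

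The Hspb1 probe was dim, with an exported intensity of 182.3 to 368.5. Before normalization its hippocampal groups overlapped. Control hippocampus 3 read 214.7, below CCH hippocampus 1 (215.7), CCH hippocampus 2 (214.9) and CIH hippocampus 2 (225.6). The size of its fall depended on how background was removed. The correction used here inferred a background spread of 89.3 to 154.2 intensity units per array, while the detection scores themselves place it at 9.1 to 13.4. With the latter, an alternative added after the data were seen, Hspb1 differed by −0.77 and −0.53 under CCH in cortex and hippocampus and by −0.39 and −0.60 under CIH. In that setting CCH cortex (adjusted p = 0.0055) and both averages (0.00046 and 0.0092) were called, while CCH hippocampus was not (adjusted p = 0.086).

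Hspb1 under CCH in cortex was called in 26 of 26 alternatives, and so were both averages. Many of these alternatives could not move the difference. The filter, the slide block and leaving out an array outside the compared groups all keep it, and only its error or adjusted p can change. With the deposited series values a floor under dim readings sets the size, −2.24 in hippocampus under CCH and under CIH alike. That alternative is no separate check of the fall. CCH in hippocampus was called in 12 of 26. Its adjusted p was 0.16 and 0.075 without control hippocampus 2 or 3, and 0.12, 0.081 and 0.11 without CCH hippocampus 1, 2 or 3. Leaving out an array of another group also lost the call for control cortex 1 (0.052), control cortex 3 (0.05 after rounding), CCH cortex 3 (0.053) and CIH hippocampus 3 (0.052). Over the 13 arrays with low Xist the difference was −0.63 in CCH cortex and −0.34 in CCH hippocampus, the latter not called. The CCH cortex value rests on CCH cortex 1, the lowest of its group for Hspb1, as the only CCH cortex array. CIH in hippocampus was called in 4 of 26 alternatives, among them without CCH cortex 1 (0.047), without control hippocampus 1 (0.047) and without CIH hippocampus 2 (0.034). CIH in cortex was called in 1, the deposited series values with their floor.

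Between the exposures Hspb1 was not called. In cortex its CIH arrays lay above its CCH arrays, by 0.21 (95% interval 0.06 to 0.37, adjusted p = 0.27), and in hippocampus the difference was −0.03 (−0.18 to 0.12, adjusted p = 1). The CCH effect was smaller in hippocampus than in cortex by 0.17, which the interaction test did not call (interval −0.05 to 0.38, adjusted p = 1).

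In whole tissue, fewer cells of a type and less RNA per cell cannot be told apart. Genes of mature oligodendrocytes were below control with Hspb1: all 7 measured of 10 listed had a negative difference in each of the 4 comparisons, with medians of −0.50 and −0.42 in cortex under CCH and CIH, and −0.83 and −0.48 in hippocampus. Of these, 2 were called in CCH cortex (Opalin and Tspan2) and 4 in CCH hippocampus (Fa2h, Opalin, Trf and Tspan2), against 0.846% and 0.518% of all probes. Under CIH 0 were called in either tissue. Averaged over tissues, 5 were called under CCH and 4 under CIH, against 2.2% and 0.9% of all probes. Their mean level ran from 9.72 to 9.84 in control cortex and 9.25 to 9.46 in CCH cortex, and from 9.19 to 9.61 in control hippocampus and 8.33 to 8.83 in CCH hippocampus. Under CIH it ran from 9.19 to 9.54 in cortex and 8.68 to 9.18 in hippocampus. The 3 measured hemoglobin genes had positive median differences, 1.26 under CCH in each tissue, 0.13 under CIH in cortex and 0.55 under CIH in hippocampus, with 2 called in CCH cortex and 3 in CCH hippocampus. The 3 measured endothelial markers of 8 listed (Eng, Pecam1 and Robo4) had medians of 0.39 and 0.46 under CCH and 0.07 and 0.02 under CIH. Of these, Pecam1 was called in CCH cortex (0.39, adjusted p = 0.02 by limma) and none in CCH hippocampus, while 2 were called under CCH averaged over tissues. The 2 measured astrocyte markers (Aqp4 and Gfap) had medians of −0.15 and −0.36 under CCH and 0.14 and 0.20 under CIH, with 0 called against control and Aqp4 called between the exposures in hippocampus (0.89, adjusted p = 0.015). The 2 microglial markers (C1qa and Csf1r) had medians of 0.02 and 0.09 under CCH and −0.18 and −0.02 under CIH. The 3 neuronal markers (Rbfox3, Slc17a7 and Syt1) had medians of 0.10 and 0.04 under CCH and −0.06 and −0.03 under CIH. The part of these cell types in the Hspb1 result was not tested. No mural or choroid plexus marker was measured.

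After the group means were removed, the named detected probes that followed Hspb1 most closely over the 18 arrays were Myo9a (r = 0.785), Abitram (0.766), Oip5os1 (0.761), Vezt (0.754) and Senp1 (0.718), the 5 highest among all named detected probes. This is a description of shared arrays without a test, and no member was among the 5. With group means left in, their r ran from −0.06 (Myo9a) to 0.43 (Abitram). Values picked as the highest of many probes are large by selection.

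**Figure D1:**
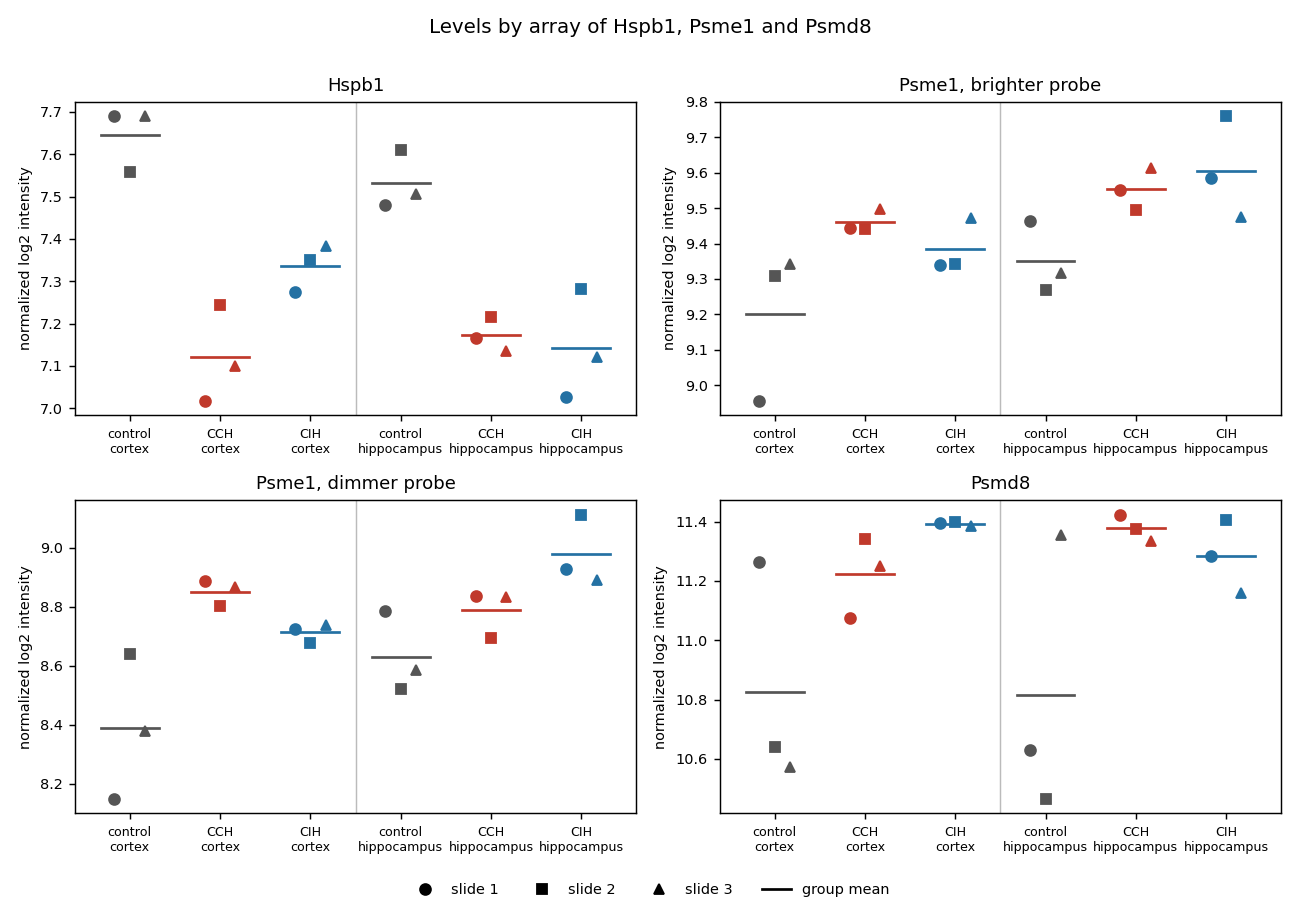
Normalized log2 intensity (vertical axis, a different range in each panel) of Hspb1, the 2 probes of Psme1 and Psmd8 on each of the 18 arrays, by group, with horizontal lines at group means and marker shapes for the 3 slides. All exposed arrays of Hspb1 lie below all control arrays, and for Psmd8 control cortex 1 (11.26) and control hippocampus 3 (11.36) lie among the exposed arrays.

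The other heat shock genes with a detected probe showed no called change. Hspa8, the constitutive cytosolic HSP70, read 14.36, 14.31 and 14.39 in control cortex, 14.27, 14.36 and 14.20 under CCH, and 14.36, 14.27 and 14.18 under CIH, so that the groups overlapped. Its differences from control were between −0.08 and 0.07 over the 4 comparisons, each with an SE of 0.07, and its second probe gave −0.08 to 0.04. The mitochondrial HSP70 gene Hspa9 differed by 0.15 under CCH in cortex (adjusted p = 0.58) and by −0.01 to 0.07 elsewhere. Hspa5, the endoplasmic reticulum HSP70 known as BiP, was detected on only 7 of 18 arrays, and its differences (−0.06 and −0.11 in cortex under CCH and CIH, −0.11 and −0.13 in hippocampus) were not called and lie near the dim end of the scale. Hspa4l, of the HSP110 family, was detected on 5 arrays and lay between −0.09 and −0.01.

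Hsp90aa1, the stress-inducible HSP90, had wide errors. In control cortex it read 11.09, 10.22 and 10.88, in CIH cortex 10.32, 9.51 and 10.40, and the difference was −0.66 ± 0.32 (SE, adjusted p = 0.8). The 3 probes of the constitutive Hsp90ab1 disagreed under CIH in cortex, with differences of 0.02, −0.77 and −0.45, none called (adjusted p = 0.99, 0.74 and 0.88). For the probe at −0.77 the 3 CIH cortex arrays (11.29, 10.99 and 10.98) lay below the 3 controls (11.90, 12.08 and 11.59). The brightest of the 3 held to a range of 12.74 to 13.29 over all 18 arrays.

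The mitochondrial chaperonin pair Hspd1 (HSP60) and Hspe1 (HSP10) was not called in any comparison with control, and Hspe1 had the largest replicate spread of the 46 genes, with a pooled SD of 0.50 against a median of 0.11 for members and for all detected probes. In cortex Hspe1 read 9.01, 7.98 and 9.04 in control, 8.66, 8.0 and 8.65 under CCH, and 8.87, 7.33 and 8.53 under CIH. In hippocampus it read 9.15, 8.37 and 8.58 in control, 8.61, 8.59 and 8.73 under CCH, and 8.87, 8.20 and 8.94 under CIH. The array on slide 2 was the lowest of its group in all 6 groups, a pattern singled out after the values were seen. Over all detected probes 378 of 14664 had this pattern. Among member genes Dnajb6 shared it in 6 of 6 groups, and Hsp90aa1, Hspd1, Hspa5, Dnajc8 and Psmb6 in 5 of 6. The share of all probes with 5 of 6 was not computed. Other slides were lowest for other members: slide 3 for Psme3ip1 in 6 of 6 groups, and slide 1 for Dnaja3 and Psmg3 in 5 of 6. Hsp90aa1 had the next largest spread (pooled SD 0.42). Hspd1 read 10.36, 10.15 and 10.44 in control cortex and 10.43, 9.88 and 10.38 under CCH.

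**Figure D2:**
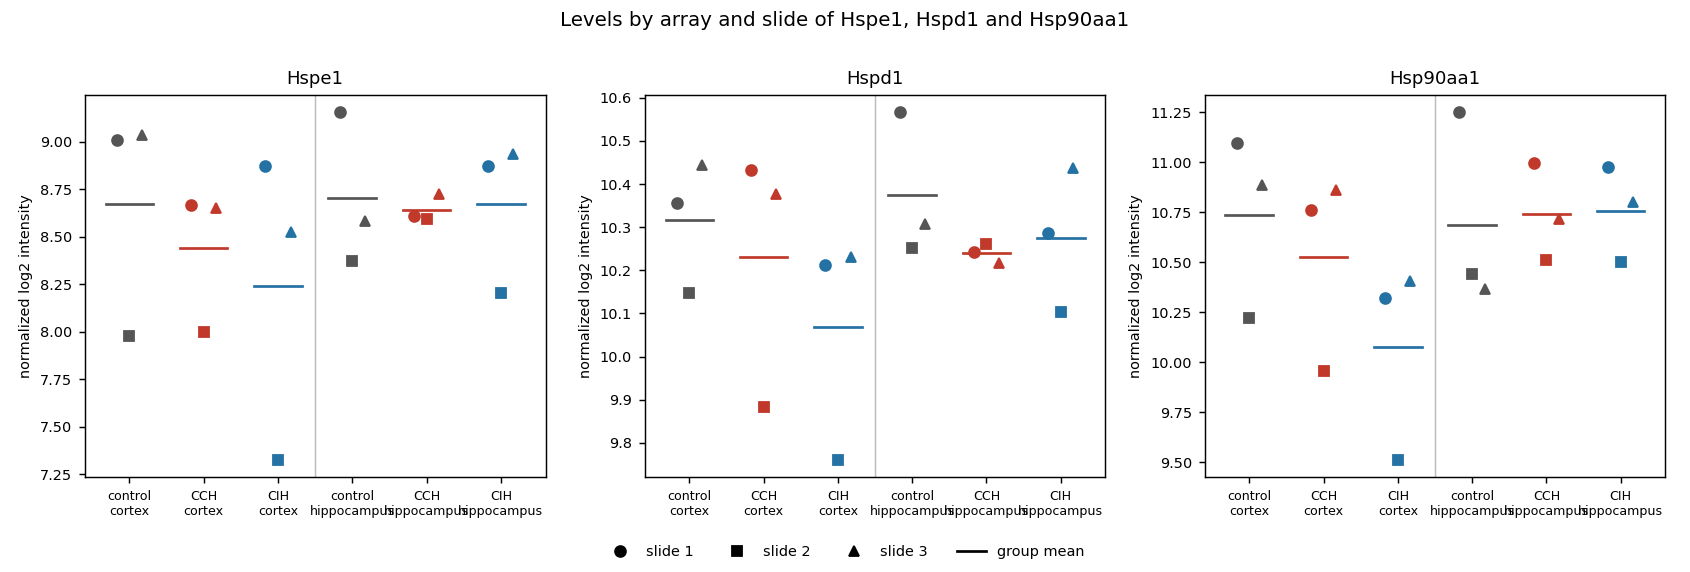
Normalized log2 intensity of Hspe1, Hspd1 and Hsp90aa1 on each array by group, with marker shapes for the slides and lines at group means. The slide 2 arrays (squares) of Hspe1 are the lowest of their group in all 6 groups. Control cortex of Hspe1 spans 7.98 to 9.04 and CCH hippocampus only 8.59 to 8.73.

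Among the 14 detected Dnaj genes, no member was called in the 4 comparisons. Their median difference was 0.01 and 0.02 in cortex (CCH and CIH) and −0.01 and −0.02 in hippocampus. Dnajb2, a J-domain protein enriched in neurons that also binds ubiquitin chains, had the largest CCH differences of the family. It read 10.30, 10.43 and 10.11 in control cortex and 9.44, 10.13 and 10.10 in CCH cortex, a difference of −0.39 ± 0.16 (adjusted p = 0.37). In hippocampus it read 9.96, 9.88 and 10.09 in control and 9.67, 9.65 and 9.69 under CCH, and the difference was −0.31 (adjusted p = 0.69), with no overlap between the groups. CIH gave −0.13 in cortex and −0.27 in hippocampus. Over the 13 arrays with low Xist its CCH cortex difference was −0.84 (adjusted p = 0.015), a value that rests on CCH cortex 1, the lowest of its group, as the only CCH cortex array.

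Dnajc6 (auxilin, which uncoats clathrin vesicles) and Dnajc5 (a synaptic vesicle chaperone) lay between −0.04 and 0.09 and between −0.02 and 0.12. Dnaja3, a mitochondrial J-domain protein, read 10.63, 10.61 and 10.78 in control hippocampus and 10.42, 10.56 and 10.48 under CIH, with a difference of −0.18 (adjusted p = 0.77) and no overlap. The dim Dnajc17 differed by 0.09 in CCH cortex (adjusted p = 0.33) and Dnajc2, a ribosome-associated factor detected on 11 arrays, by −0.13 in CIH cortex (adjusted p = 0.84). The Cct ring, which folds actin and tubulin, had 2 detected subunits. Cct4 read 11.37, 11.58 and 11.57 in control hippocampus and 11.31, 11.39 and 11.08 under CCH, a difference of −0.24 ± 0.08 (adjusted p = 0.35). Cct3 lay between −0.15 and 0.17.

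For the proteasome, no detected gene was called in a single tissue. Of the 19 detected genes, 11, 12, 11 and 14 were above control, in the order CCH and CIH in cortex, then CCH and CIH in hippocampus, with median log2 differences of 0.06, 0.06, 0.02 and 0.06. Over all detected probes the medians were −0.00, 0.01, −0.00 and −0.00. The 26 other detected members without Psme3ip1 had medians of −0.04, −0.02, −0.02 and −0.02. At an unadjusted p under 0.05, 5, 3, 5 and 8 of the 46 member genes passed, where all probes gave 10.8%, 6.38%, 8.39% and 6.39%. The arrays of exposed and control groups did not overlap for 6, 5, 6 and 5 of the 46, against 15.1%, 12.5%, 12.2% and 9.48% of all detected probes. For an unadjusted p these shares are near the background in 3 of the comparisons, and in CIH hippocampus the 8 of 46 are 17.4%, with 5 above and 3 below control.

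Psme1, which encodes the alpha subunit of the PA28 activator, was the other member called against control, through 1 of its 2 probes and in the averaged comparisons. Its dimmer probe read 8.15, 8.64 and 8.38 in control cortex, 8.89, 8.80 and 8.87 under CCH, and 8.72, 8.68 and 8.74 under CIH. In hippocampus it read 8.79, 8.52 and 8.59 in control, 8.84, 8.69 and 8.83 under CCH, and 8.93, 9.11 and 8.89 under CIH. The exposed arrays lay above their controls in 3 of 4 comparisons, and CCH hippocampus overlapped with control. The differences were 0.46 (adjusted p = 0.052) and 0.33 (0.44) for CCH and CIH in cortex, and 0.16 (0.8) and 0.35 (0.39) in hippocampus.

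Averaged over tissues, this probe rose by 0.31 ± 0.07 under CCH (adjusted p = 0.038) and by 0.34 ± 0.07 under CIH (adjusted p = 0.046). Neither call held with slide as a block (adjusted p = 0.055 and 0.067). The brighter probe gave 0.23 (adjusted p = 0.1) and 0.22 (adjusted p = 0.2) and was not called, with the same sign in all 4 single comparisons (0.26, 0.18, 0.20 and 0.26). The call of the dimmer probe was kept in 6 of 26 alternatives for CCH and 5 of 26 for CIH. Without control cortex 1, its lowest array, the averaged differences were 0.25 (adjusted p = 0.073) and 0.28 (adjusted p = 0.082).

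Psme2, the beta subunit of PA28, was dim. It read 6.97, 6.91 and 6.81 in control hippocampus and 7.0, 7.14 and 7.06 under CIH, a difference of 0.17 ± 0.05 (adjusted p = 0.39) without overlap. Under CCH in hippocampus its difference was −0.01. Psmb10, the inducible core subunit that replaces Psmb7 in immunoproteasomes, read 9.29, 9.35 and 9.36 in control hippocampus, 9.54, 9.71 and 9.47 under CCH, and 9.61, 9.52 and 9.39 under CIH. All exposed hippocampal arrays lay above the controls, by 0.24 ± 0.07 under CCH (adjusted p = 0.26) and 0.17 under CIH (adjusted p = 0.72). In cortex the differences were 0.04 and 0.14. Irf9, a transcription factor of the interferon response, gave differences of −0.08 to 0.03 and was not called.

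The constitutive core subunits Psmb3, Psmb5 and Psmb6 gave no call. Psmb3 read 10.88, 10.88 and 11.06 in control cortex and 11.21, 11.05 and 11.26 under CCH, a difference of 0.23 ± 0.08 (adjusted p = 0.23), and its other differences were 0.14, 0.09 and 0.20. Psmb5, the chymotrypsin-like catalytic subunit, differed by 0.27 and 0.15 in cortex under CCH and CIH and by 0.15 and 0.18 in hippocampus (adjusted p = 0.51 to 0.97), with control cortex spread from 9.41 to 9.91. Psmb6 ran from −0.04 to 0.12. The alpha ring subunits Psma2 and Psma3 lay between −0.07 and 0.03, and Psma4 differed by 0.19 in CCH cortex (adjusted p = 0.47) and by −0.06 to 0.07 elsewhere.

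In the 19S cap, Psmd8, by the 1 probe that stands for each gene, had the largest positive difference of the 46 in each comparison, and its control arrays disagreed. It read 11.26, 10.64 and 10.57 in control cortex and 10.63, 10.46 and 11.36 in control hippocampus, while all 12 exposed arrays lay between 11.07 and 11.42. The differences were 0.40, 0.57, 0.56 and 0.47 ± 0.20 (adjusted p = 0.49, 0.56, 0.36 and 0.71). In hippocampus they became 0.83 under CCH (adjusted p = 0.039) and 0.74 under CIH (adjusted p = 0.21) without control hippocampus 3, and 0.38 and 0.29 without control hippocampus 2. In cortex CCH gave 0.62 without control cortex 1 (adjusted p = 0.29) and 0.27 without control cortex 3. Averaged over tissues they were 0.48 (adjusted p = 0.11) and 0.52 (adjusted p = 0.13). Without control hippocampus 3 they became 0.61 (adjusted p = 0.0071) and 0.65 (adjusted p = 0.011), and without control cortex 1 they became 0.59 (adjusted p = 0.032) and 0.63 (adjusted p = 0.04). No label sets these 2 arrays apart from the other controls.

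The scaffold subunits Psmd1 and Psmd2 differed by −0.07 to 0.02 and by 0.02 to 0.17, and Psmd3 by −0.16 to 0.06. The second probe of Psmd2 gave −0.06 to 0.09. The ATPase subunits Psmc1 and Psmc3 ran from −0.06 to 0.17 and from −0.11 to −0.00. Psmf1, an inhibitor and modulator of the core, differed by 0.22 in CIH cortex and 0.21 in CCH hippocampus (adjusted p = 0.88 and 0.79), without overlap in either. The activator Psme4 and the assembly chaperones Psmg1 and Psmg3 stayed between −0.07 and 0.06.

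**Figure D3:**
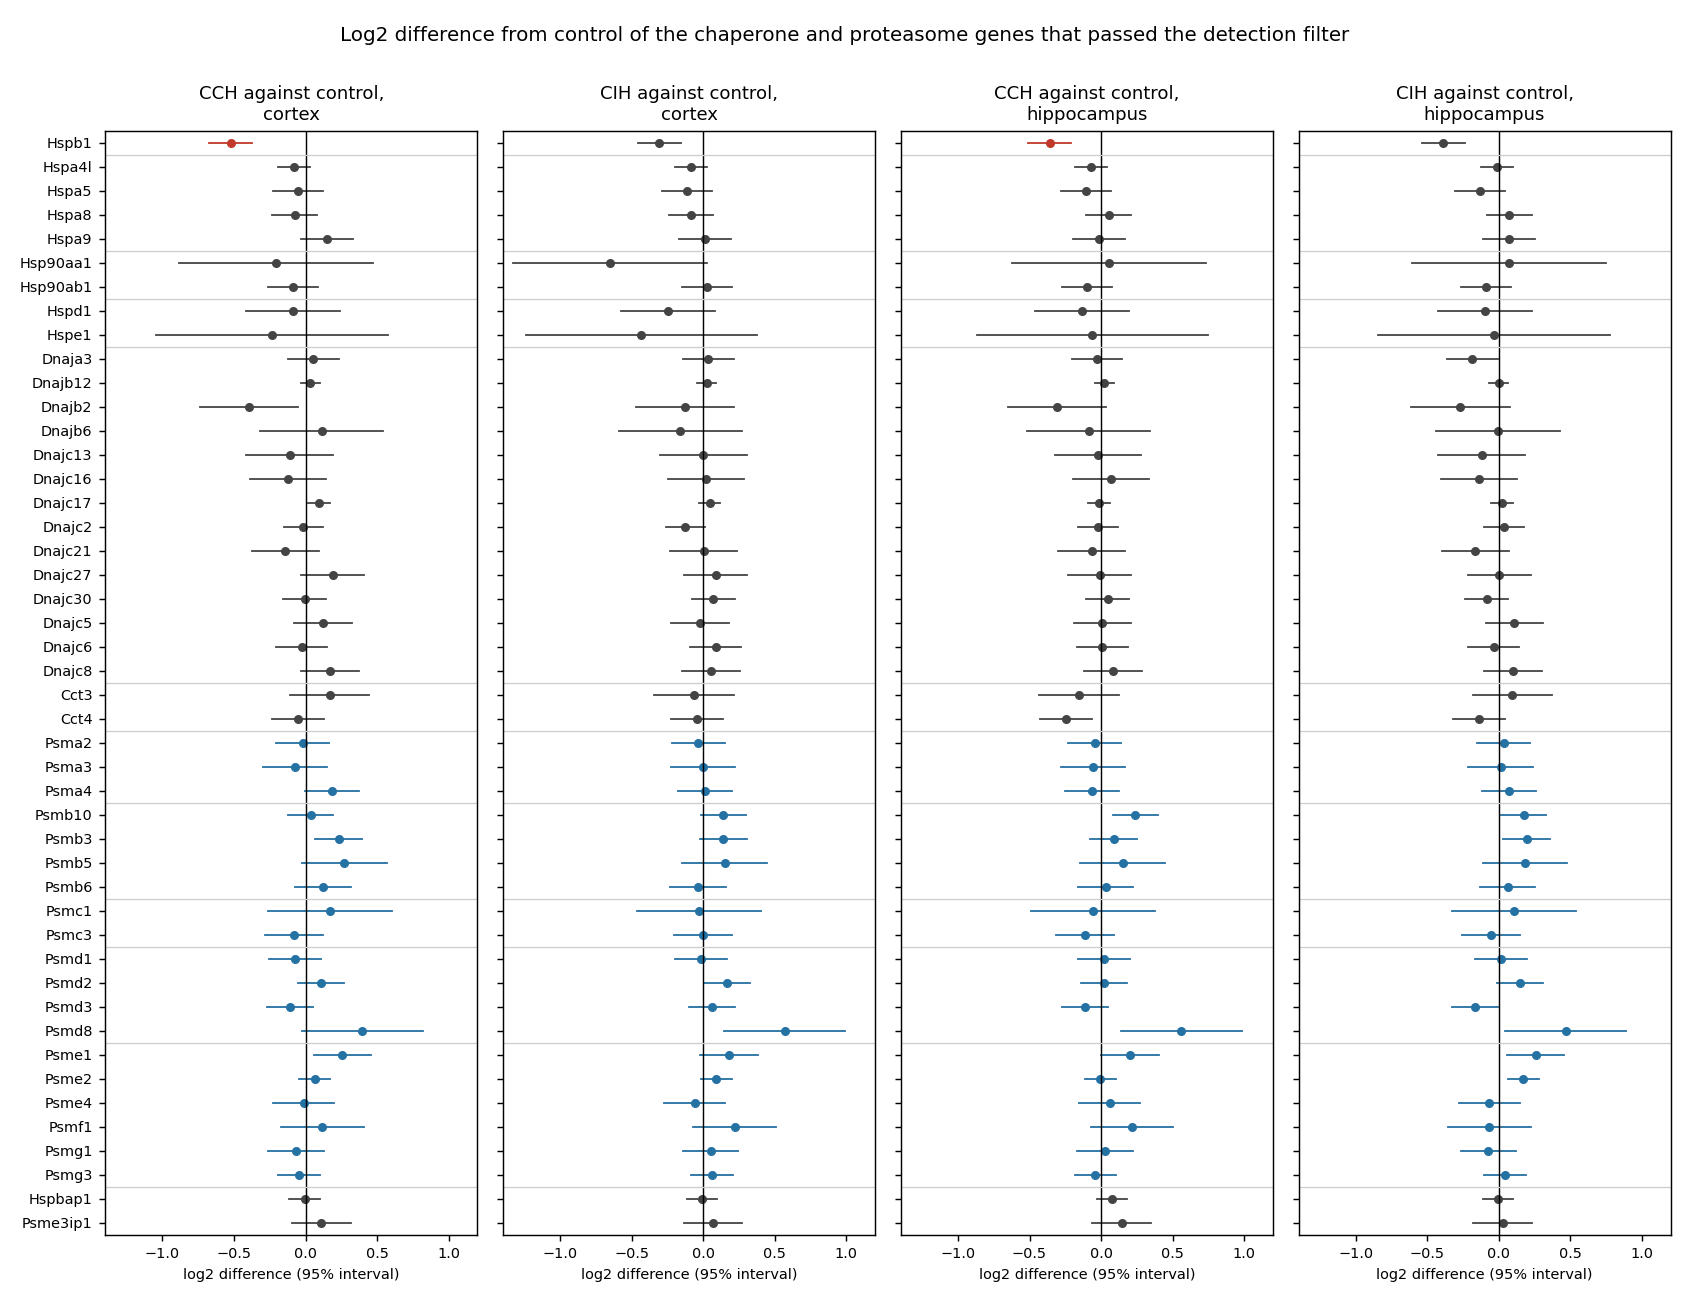
Log2 difference from control (points) with the 95% interval of the limma fit (bars) for the 46 detected member genes, 1 probe a gene, in the 4 comparisons, with grey lines between families. Red marks an adjusted p under 0.05, blue a proteasome gene and dark grey all others: only Hspb1 is red, in CCH cortex (−0.52) and CCH hippocampus (−0.36), and the widest bars belong to Hspe1 and Hsp90aa1.

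Genes that work with the members gave no call in the 4 single comparisons. Of 15 measured heat shock regulators and co-chaperones, 0 were called, with medians of −0.10 and 0.01 in cortex under CCH and CIH, and −0.03 and 0.01 in hippocampus. Hsf1, the main heat shock factor, differed by −0.11, 0.01, −0.12 and −0.21. Cdc37l1, a homologue of the HSP90 co-chaperone Cdc37, was below control under CCH averaged over tissues (−0.61, adjusted p = 0.044). Of 11 unfolded protein response and folding genes 0 were called, with medians of −0.03, 0.01, −0.04 and −0.02 in the same order, and Xbp1, a transcription factor of that response, gave −0.10, −0.05, −0.15 and −0.27. Of 9 proteasome partners 0 were called, with medians of 0.00, 0.04, −0.07 and 0.00. At an unadjusted p under 0.05, the co-chaperones gave 1, 0, 1 and 1, the unfolded protein response genes 0, 0, 1 and 1, and the proteasome partners 1, 0, 2 and 1.

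Between the exposures, 0 of 52 member probes were called, against 0.471% of all probes in cortex and 0.286% in hippocampus. At an unadjusted p under 0.05, 4 member probes passed in cortex and 1 in hippocampus, against 9.81% and 6.61% of all probes. The lowest unadjusted p belonged in cortex to the Hsp90ab1 probe that gave −0.77 against control (CIH minus CCH −1.07 ± 0.33, adjusted p = 0.24) and in hippocampus to Psme2 (0.18 ± 0.05, adjusted p = 0.32). In cortex the brightest Hsp90ab1 probe went the other way, at 0.11 (adjusted p = 0.71 by limma). The remaining Hsp90ab1 probe gave −0.79 (adjusted p = 0.33). For the interactions between tissue and exposure, limma called 0 of all 14664 probes for CCH or CIH. At an unadjusted p under 0.05, 0 of 52 member probes passed in either, against 4.57% of all probes for CCH and 2.61% for CIH.

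Between the tissues, Hsp90ab1 and Psmb10 were called. In control animals 2 of 52 member probes were called, against 11.7% of all probes. Hsp90ab1, by its brightest probe, read 12.96, 13.03 and 12.87 in control cortex and 13.27, 13.29 and 13.10 in control hippocampus, a difference of 0.27 (hippocampus minus cortex, adjusted p = 0.044) without overlap. Psmb10 was lower in control hippocampus (−0.24, adjusted p = 0.05 after rounding), with 9.66, 9.58 and 9.48 in control cortex against the hippocampal values above. Both calls were lost under several alternatives, among them no background correction (adjusted p = 0.055 and 0.11).

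Averaged over the 3 exposure states, 7 of 52 probes were called, against 26.8% of all probes. Higher in hippocampus were Hsp90ab1 (0.23, adjusted p = 0.0019), Dnajc21, a factor of ribosome assembly (0.23, adjusted p = 0.014), Psma4 (0.17, adjusted p = 0.023) and Psme1 by its brighter probe (0.15, adjusted p = 0.049). Lower were Dnajc27 (−0.23, adjusted p = 0.008), Psmb10 (−0.16, adjusted p = 0.011) and Dnajb2 (−0.32, adjusted p = 0.017). The other probes of Hsp90ab1 gave 0.10 and 0.24 and were not called (adjusted p = 0.76 and 0.31). Of the 7, Hsp90ab1, Dnajc21 and Dnajc27 were also called over the 13 arrays with low Xist.

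**Figure D4:**
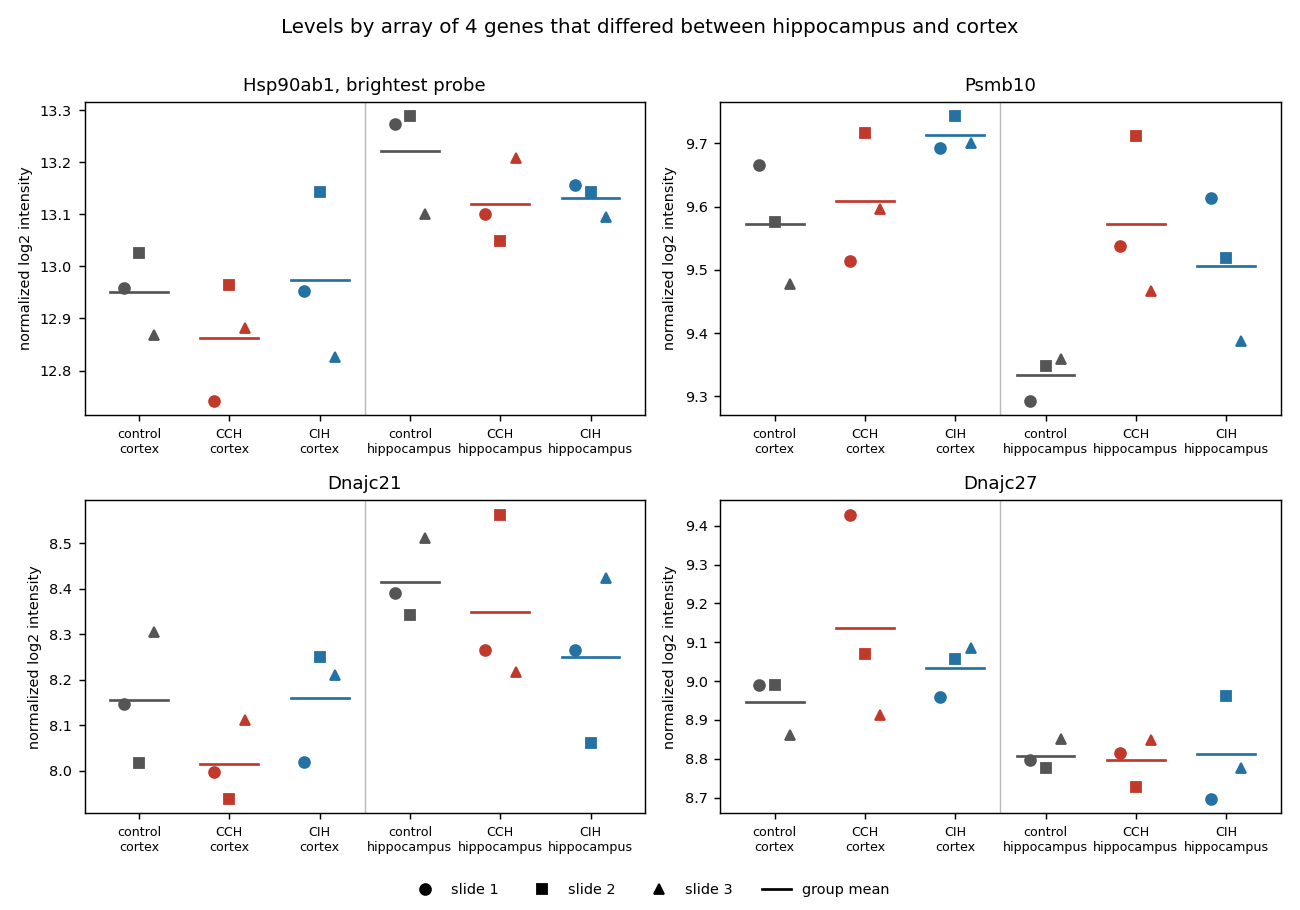
Normalized log2 intensity of Hsp90ab1 (brightest probe), Psmb10, Dnajc21 and Dnajc27 on each array by group, with marker shapes for the slides and lines at group means. Control hippocampus lies above control cortex for Hsp90ab1 and below it for Psmb10, without overlap in either.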

How the data were processed

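The deposited scanner export holds an intensity and a detection score per probe for 18 arrays (total RNA, 100 ng input), exported without normalization per the file headers. The score is a fraction from 0 to 1, as deposited by the authors, that ranks the probe against negative controls. The submitters' processing notes name BeadStudio 2.0 and the header names version 1.5.1.3. The export's 108 further columns were not used. The deposited series values, intensities from which the authors subtracted a constant in most columns, served as an alternative.

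The neqc function of limma 3.58.1 (R 4.3.3) corrected and quantile normalized the intensities (background from 1 minus the detection score, offset 16, log2 scale), probes were filtered as stated in the report, and lmFit and eBayes estimated the 6 group means from the 18 arrays together. Two-sided p-values got a Benjamini-Hochberg adjustment over 14664 probes, with a call at an adjusted p under 0.05. The fit was also run on simulated data with noise drawn independently for each array. That check of the code does not cover deviations shared by arrays of a slide. Of 11897 numbered identifiers, 82.6% matched a mouse gene of the RefSeq table of GRCm38.p6. A gene is given by its brightest detected probe, and counts of calls use all detected member probes. Alternatives were background, scaling, filter, slide block, deposited values, the 13 arrays with low Xist, and leaving out each array. Named genes are called members, the 5 lowest p in each direction per comparison with control, and a list of chaperone and immunoproteasome genes. Members and lists were chosen with earlier results of these data known. Arrays limit precision by their number, 3 a group.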

Additional observations from a re-analysis of the deposited data

How the results depend on the processing

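Each count of called members was recomputed under every alternative. For CCH in cortex (1), it was 2 over probes detected on all 18 arrays (Hspb1 and Psme1) and 3 over the arrays with low Xist (Hspb1, Dnajb2 and Dnajc27, with a single CCH cortex array). For CIH in cortex (0) and CIH in hippocampus (0) it was 1 with the deposited series values, where a floor at 16 after the subtracted constant puts Hspb1 at −2.07 and −2.24 (and at −2.62 and −2.24 under CCH). For CCH in hippocampus (1) it was 0 without background correction, with aligned medians, without a filter, over the arrays with low Xist, and with the background spread from the detection score. For CIH against CCH in cortex (0) it was 1 over the arrays with low Xist, Dnajc27. For CCH averaged (2) it was 1 without background correction, with aligned medians, without a filter, with the replicate block, with the deposited values and with the background spread from the detection score. For CIH averaged (2) it was 1 without background correction, without a filter, with the replicate block, with the deposited values, over the arrays with low Xist and with that background spread. For the tissues in control (2) it was 0 without background correction, with aligned medians, over probes detected on all arrays, without a filter, with the deposited values and with that background spread, and 1 over the arrays with low Xist. For the tissues averaged (7) it was 11 with aligned medians, 3 over the arrays with low Xist, 4 with that background spread, 8 with the replicate block and 6 under the 4 other settings. Leaving out 1 array at a time gave 1 to 2 for CCH cortex, 0 to 0 for CIH cortex, 0 to 1 for CCH hippocampus, CIH hippocampus and CIH against CCH in cortex, 0 to 0 for CIH against CCH in hippocampus and both interactions, 1 to 2 for both averages, 0 to 2 for the tissues in control and 6 to 9 for the tissues averaged. Arrays left alone in a group are taken to vary like the others.

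Of 1837 recomputed values of named genes, 1698 kept direction and side of the threshold, 117 lost a call, 12 gained one, and 10 uncalled ones changed sign or became 0. Leaving out an array of a group outside a comparison keeps its difference, so many of these differences could not move. Member medians stayed within −0.05 to 0.06. With the slide block the dimmer probe of Psme1 had adjusted p = 0.055 and 0.067 in the averages, so its calls were lost. Between tissues averaged the block lost Psme1 (0.058) and added Psmc3 (0.015) and Psme4 (0.036), and it changed no other member call. Same-numbered arrays of different groups correlated above 0.1 after removal of group means in 31 of 45 pairs, and arrays of unlike number in 17 of 90. Arrays of one slide thus deviated together more often, but not in every pair, and the fit without the block was kept as the main one. The background spread setting was added after the data were seen. Apart from the effect of the floor and of tests over fewer arrays, the causes were not tested.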
